A study of Mus musculus with 6 samples.

Results

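The genes described here are 44 regulators and markers of the lineages that a pluripotent mouse cell can enter: 11 of endoderm, 16 of mesoderm, 10 of ectoderm and 7 of trophoblast. They were chosen by name, and 42 of them were measured among 19938 genes. The mesoderm gene T (brachyury) and the trophoblast gene Gcm1 had no probeset named for them alone in the platform annotation and were not analysed here. The values come from 6 lines of mouse iPS (induced pluripotent stem) cells. Every line is a clone grown out of a single colony and was hybridised to 1 whole-transcript array, and each group has n = 3 clones. All 6 lines were made from OG2 embryonic fibroblasts, which carry a fluorescent reporter under Oct4 control, by infection with Sox2, Klf4, Oct4 and c-Myc. Control clones 2, 3 and 4 also received an shRNA against luciferase, and shECAD clones 4, 8 and 9 one against E-cadherin. Infected cells were replated on feeders at day 6, the colonies were taken at day 14, and feeders were removed before RNA was extracted. Values are given in clone order, control clones 2, 3 and 4 before shECAD clones 4, 8 and 9, on the log2 scale.

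Endoderm, mesoderm and ectoderm are the layers that form from the epiblast at gastrulation, while trophoblast, which makes the fetal part of the placenta, separates earlier. The transcription factors that start each lineage are held low in pluripotent cells and come on when those cells differentiate. Mesoderm and definitive endoderm arise in the primitive streak, where Mixl1 and Eomes act under Nodal and Wnt signalling, and Gata4, Gata6 and Sox17 drive primitive endoderm. E-cadherin joins the cells of the epiblast and is replaced by other cadherins as cells leave the streak.

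Cdh1, the E-cadherin gene, fell in all shECAD clones. It read 9.18, 9.60 and 9.07 with the control shRNA and 6.75, 6.92 and 7.81 with the E-cadherin shRNA. Its log2 fold change was -2.13 ± 0.27 (SE, limma adjusted p = 0.00683), and an exact two-sided permutation test gave p = 0.1, the smallest that 3 clones against 3 allow. The array medians lay between 5.11 and 5.30, with the highest median and the smallest SD (2.11) in shECAD clone 9 and the lowest median and the largest SD (2.26) in control clone 3. Of the 14 pluripotent stem cell markers, all measured, 0 passed the test, and 5 had an unadjusted p below 0.05, all with lower means in the shECAD clones (9.07% of all genes were lower at that threshold). Their mean log2 level was 9.34 to 9.53 in the control clones and 8.87 to 9.33 in the shECAD clones. Of 18 fibroblast and feeder markers, 17 were measured. At a limma adjusted p below 0.05, 13 were called higher, against 1.90% of all genes. Col3a1, Fap and Dcn had higher means without a call, and Lum had a lower mean (log2 fold change -0.23). The mean log2 level of the 17 was 5.43 to 6.45 in the control clones and 7.26 to 7.58 in the shECAD clones. Their lowest single reading was 3.07 (Fap). The part of those cells in the results below was not tested. The labels describe separate colonies but no separate infections, so p-values measure the spread between clones.

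Upstream sequences of 4 members are shown. Eomes, Lhx1 and Gsc are among the 21 members that read highest in shECAD clone 9, and Olig2 has the lowest log2 fold change. Each sequence is the 250 bases before the gene's annotated start in RefSeq (build GRCm38.p6), 5′ to 3′ on the gene's own strand. Such an entry exists for 35 of the 44 genes, and Mixl1 is not among them. The windows are chr9:118477939-118478188 on the plus strand for Eomes, chr11:84525535-84525784 on the minus strand for Lhx1, chr12:104473237-104473486 on the minus strand for Gsc and chr16:91225300-91225549 on the plus strand for Olig2. Capitals mark matches, on either strand, to the TATA box core TATAA, the CCAAT box CCAAT or the SMAD core CAGAC. The T-box core AGGTGTG and the FOXH1 core AATNCACA were also searched.
Eomes: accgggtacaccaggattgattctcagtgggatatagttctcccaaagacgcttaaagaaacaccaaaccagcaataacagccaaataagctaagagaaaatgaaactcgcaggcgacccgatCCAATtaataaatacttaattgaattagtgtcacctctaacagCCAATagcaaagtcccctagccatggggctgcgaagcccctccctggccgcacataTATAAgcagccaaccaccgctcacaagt
Lhx1: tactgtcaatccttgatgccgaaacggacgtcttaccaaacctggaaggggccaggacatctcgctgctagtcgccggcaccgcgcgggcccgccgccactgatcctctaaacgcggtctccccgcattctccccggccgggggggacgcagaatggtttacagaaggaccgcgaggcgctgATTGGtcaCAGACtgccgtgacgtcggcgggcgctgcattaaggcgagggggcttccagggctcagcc
Gsc: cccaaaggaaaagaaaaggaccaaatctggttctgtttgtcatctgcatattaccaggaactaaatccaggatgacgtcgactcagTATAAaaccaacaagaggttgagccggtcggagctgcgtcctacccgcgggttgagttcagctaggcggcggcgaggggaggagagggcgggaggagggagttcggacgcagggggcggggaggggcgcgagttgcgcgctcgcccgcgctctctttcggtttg
Olig2: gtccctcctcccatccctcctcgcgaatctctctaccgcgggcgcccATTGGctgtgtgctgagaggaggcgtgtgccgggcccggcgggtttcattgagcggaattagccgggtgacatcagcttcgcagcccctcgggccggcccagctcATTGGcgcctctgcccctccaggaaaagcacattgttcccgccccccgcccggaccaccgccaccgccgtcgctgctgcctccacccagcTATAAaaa
Eomes held 1 TATAA, 28 bases before its start, and 2 CCAAT. Gsc held 1 TATAA, 164 bases before its start. Lhx1 held 1 CCAAT and the only CAGAC of the 4 windows. Olig2 held 1 TATAA, 8 bases before its start, and 2 CCAAT on the opposite strand. No window held AGGTGTG or AATNCACA, and no matches in these windows overlapped. Among 32851 such windows of all genes, 22.8% held TATAA, 33.8% CCAAT, 42.2% CAGAC, 5.10% AGGTGTG and 3.18% AATNCACA, so each of the matched motifs is common. GC content was 46.4% for Eomes, 64.8% for Lhx1, 59.2% for Gsc and 66.8% for Olig2.

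None of the 42 lineage genes passed the test between the groups. With limma and an adjusted p below 0.05, 0 were called higher and 0 lower. Of all genes 3.12% were called, 1.90% higher and 1.23% lower (378 and 245 genes, or 303 and 377 with arrays centred on their medians). At an adjusted p below 0.1 there were 3 members (Dab2 and Kdr with higher and Olig2 with lower means), against 6.41% of all genes. At an unadjusted p below 0.05 there were 7 (Dab2, Gata6, Foxa2, Kdr, Runx1 and Fabp7 with higher and Olig2 with lower means), or 16.7% of the members, against 18.0% of all genes (8.96% higher and 9.07% lower). The groups did not overlap in 6 members, 5 higher and 1 lower, or 14.3%, against 23.6% of all genes (11.1% higher and 12.5% lower). The 16.7% was near its background and the 14.3% lay below its own. Counted for higher means alone, neither share of the members lay below the background. The 95% interval of the log2 fold change lay within -1 and 1 for 34 of the 42. It did so for 17983 of the 19938 genes, a larger share. Fewer cells that express a gene and less RNA per cell cannot be told apart in these bulk samples.

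Small positive differences were frequent. The shECAD mean was above the control mean in 35 of 42 members (83.3%), where 53.7% of all genes were, and in 68.5% of the genes below the median level, where 32 of the 42 members lay. The median log2 fold change was 0.21 over the members and 0.03 over all genes. With median centring of the arrays 31 members (73.8%) had the higher mean, against 52.0% of the genes below the median level, and after quantile normalization 33 (78.6%) did, against 54.2%. Without shECAD clone 9 there were 29 (69.0%), against 56.2%, and without control clone 3 there were 26 (61.9%), against 58.6%, which is near that share. Leaving out either of these clones also lowered the median over members, to 0.11 without shECAD clone 9 and 0.06 without control clone 3.

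**Figure D1:**
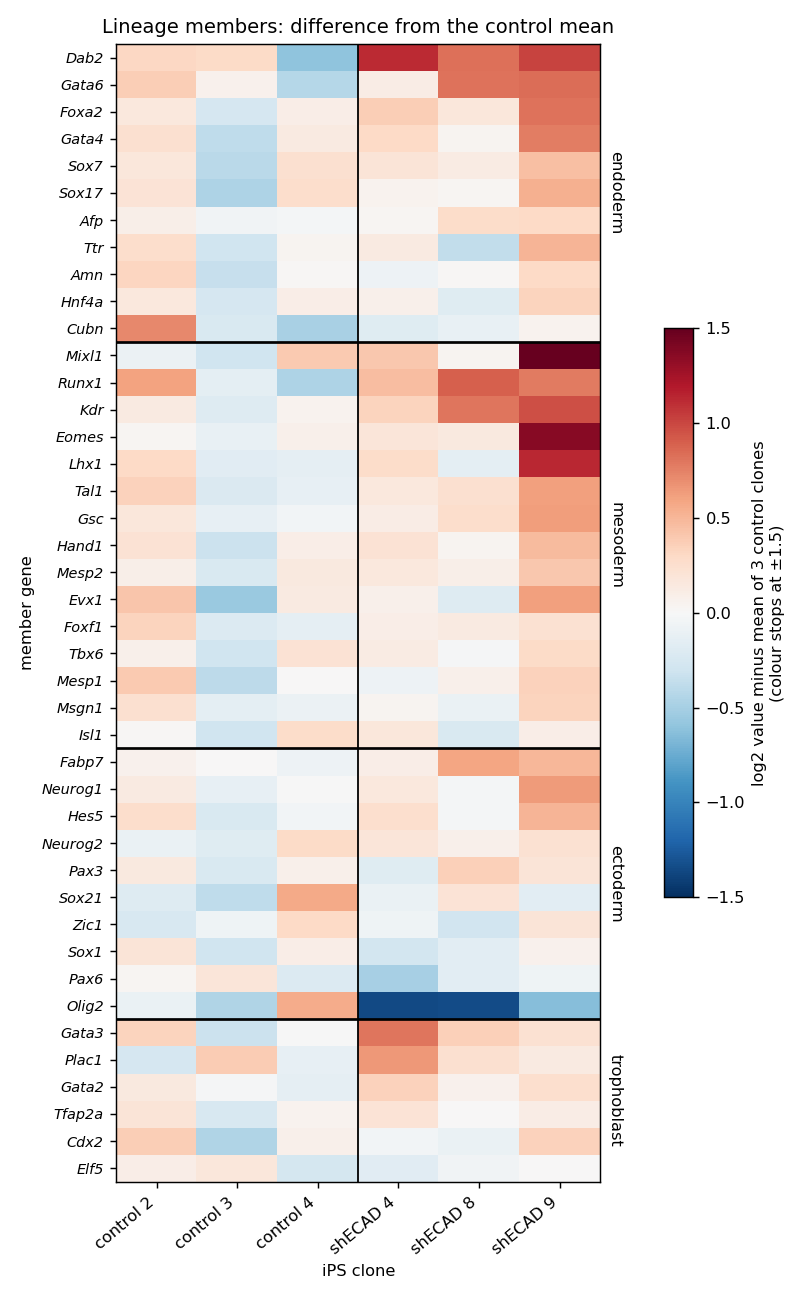
Each row is 1 of the 42 measured lineage genes and each column 1 iPS clone. Colour gives the log2 value minus the mean of the 3 control clones (red higher, blue lower, colour stops at ±1.5), and lines part the lineages and the groups. Mixl1 and Eomes are darkest red in shECAD clone 9, Olig2 is blue in all 3 shECAD clones, and control clone 3 is pale blue in most rows.

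The endoderm genes did not pass the test, and the largest difference was that of Dab2. Dab2, an endocytic adaptor of primitive and visceral endoderm that other cells including fibroblasts also make, read 5.67, 5.64 and 4.76 in the controls and 6.48, 6.19 and 6.37 in the shECAD clones. All 3 shECAD clones lay above all control clones, and the control clones were spread by the low value of clone 4. Dab2 had a log2 fold change of 0.99 ± 0.24 (SE), a 95% interval from 0.46 to 1.52 and a limma adjusted p of 0.0536. Leaving out 1 clone gave limma adjusted p-values up to 0.152 (without shECAD clone 4), while the test was passed without control clone 2 (0.0491), among brighter genes alone (0.0408), with an intensity trend and robust prior (0.037) and with array weights (0.0222). The test was not passed after quantile normalization (limma adjusted p = 0.0582), after median centring (0.0603) or with every probeset on its own (0.104). A dimmer probeset of Dab2 read 2.49 to 2.75 in all 6 clones, with a log2 fold change of -0.03. The mean of both probesets had 0.48 (limma adjusted p = 0.17). The fibroblast and feeder markers were higher in the same 3 clones, at mean log2 levels of 7.26, 7.58 and 7.30. They were lowest in control clone 4 (5.43), where Dab2, Gata6, Runx1, Fabp7, Gata2, Cubn and Elf5 were also lowest. Of these members, Cubn and Elf5 had log2 fold changes of -0.08 and -0.07. Control clone 4 read lowest in 7 of the 42 members (16.7%), against 14.3% of all genes, and control clone 3 in 30. Among the shECAD clones, clone 8 had the highest marker mean and the lowest Dab2 value (6.19). The part of fibroblasts and feeders in these values was not tested.

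Gata6, a zinc finger factor that specifies primitive endoderm, read 5.61, 5.30 and 4.82 in the controls and 5.36, 6.06 and 6.08 in the shECAD clones. Clones 8 and 9 were above every control clone, and clone 4 lay among them. Its log2 fold change was 0.59 ± 0.25 (SE, limma adjusted p = 0.241). Foxa2, a forkhead factor of definitive and visceral endoderm and the node, read 5.71, 5.30 and 5.65 against 5.92, 5.72 and 6.37. The groups were apart by only 0.01, between control clone 2 and shECAD clone 8, and they overlapped after quantile normalization. Foxa2 had a log2 fold change of 0.45 ± 0.20 (SE, limma adjusted p = 0.265), which was 0.27 without shECAD clone 9.

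The other endoderm genes had log2 fold changes from -0.08 for Cubn to 0.37 for Gata4, with limma adjusted p-values of at least 0.429. Gata4, the partner of Gata6 in primitive endoderm, read 4.78 to 5.41 in the control clones and 5.47, 5.21 and 5.93 in shECAD clones 4, 8 and 9. Sox17 and Sox7, related HMG-box factors of endoderm and vessels, had log2 fold changes of 0.21 and 0.26, and Hnf4a, a nuclear receptor of visceral endoderm and liver, one of 0.08. The secreted products of visceral endoderm, Afp (alpha-fetoprotein) and Ttr (transthyretin), had values of 0.20 and 0.09. Amn and Cubn, whose proteins form the cubam uptake receptor, had values of 0.08 and -0.08. Cubn read 4.91 in control clone 2 and 3.70 to 4.24 in the other 5 clones. Hnf4a and Amn both turned to -0.01 with median centring of the arrays.

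The mesoderm list held the members with the largest clone-to-clone differences among the shECAD lines. Mixl1, a homeobox factor of the primitive streak, read 4.54, 4.33 and 5.02 in the controls and 5.04, 4.67 and 6.57 in the shECAD clones. Clone 9 stood 1.53 above the next clone, clone 4 was level with the highest control clone and clone 8 was below it. Eomes, a T-box factor of the streak and of trophoblast, read 5.03, 4.89 and 5.07 against 5.18, 5.14 and 6.37. Clone 9 was 1.19 above the next clone, while clones 4 and 8 exceeded the highest control clone by less than the control clones differed among themselves. The log2 fold changes were 0.80 ± 0.41 (SE) for Mixl1 and 0.56 ± 0.29 for Eomes, both with a limma adjusted p of 0.34, and without clone 9 they were 0.22 and 0.16.

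Other genes of the streak and its anterior organiser were also highest in shECAD clone 9. Lhx1, a LIM homeobox factor of the organiser and early kidney, read 4.57, 4.10 and 4.14 in the control clones and 4.54, 4.12 and 5.40 in shECAD clones 4, 8 and 9. Gsc (goosecoid), a homeobox repressor of the organiser, read 5.27, 4.99 and 5.06 against 5.22, 5.37 and 5.74. Clone 9 exceeded the next clone by 0.83 for Lhx1 and 0.37 for Gsc, and without it the log2 fold changes were 0.06 and 0.19. Lhx1 and Gsc were singled out after their values were seen. In shECAD clone 9, 2 of the 42 members (Mixl1 and Eomes) lay 1 log2 unit or more above every control clone, where 0.697% of all genes did. The count was 0 in shECAD clone 4 (background 0.547%) and 0 in shECAD clone 8 (0.672%), and that of clone 9 was also 2 under both other scalings. One array per clone gives no replicate for a test of a single clone.

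From the list of other lineage genes, Fgf8, a growth factor of the streak, and Cer1, a secreted Nodal antagonist of the anterior visceral endoderm, were also highest in shECAD clone 9. Both were singled out after their values were seen. Fgf8 read 5.20, 5.52 and 5.16 in the control clones and 5.70, 5.65 and 7.27 in shECAD clones 4, 8 and 9. Cer1 read 4.02, 3.65 and 3.06 against 3.48, 3.85 and 5.05. Other genes of the endoderm list that holds Cer1 went the other way. Hhex read 5.37, 5.59 and 5.41 against 5.44, 5.04 and 5.04, and Foxa3 5.02, 4.92 and 5.02 against 4.90, 5.08 and 4.90. Both were lowest in shECAD clone 9, nearly level with shECAD clone 8 for Hhex and clone 4 for Foxa3. Of the 56 measured genes of these lists, 3 (Cer1, Fgf8 and Nes) met the same rule in shECAD clone 9, and 0 did in clone 4 or in clone 8. The member Evx1, another homeobox factor of the streak, was also highest in clone 9, at 5.10, by 0.20 over control clone 2. Mesp1, Mesp2, Tbx6 and Msgn1, factors of presomitic and cardiac mesoderm, had log2 fold changes of 0.12, 0.22, 0.13 and 0.09. Mesp2, Tbx6 and Msgn1 were also highest in shECAD clone 9, by 0.25, 0.08 and 0.09 over the next clone, while Mesp1 was highest in control clone 2 and ranged from 3.91 to 4.70 over the clones. In the same clone, 9 of the 14 pluripotent stem cell markers (64.3%) read lowest of the 6 clones. All 14 lie above the median level, and clone 9 was lowest in 36.2% of the genes at or above that level and in 21.7% of all genes. After quantile normalization it was lowest in 8 of the markers, against 26.1% of those brighter genes. These 4 were picked after their values were seen. Esrrb, an orphan receptor of the naive state, read 6.92 in clone 9 and 7.69 to 8.75 in the other clones, Tfcp2l1 6.74 and 7.56 to 8.38, and Sox2 9.32 and 10.06 to 10.63. Pou5f1 read 10.28 in clone 9 and 10.50 to 10.77 in the others. In the opposite direction, 2 of the 14 markers read highest in clone 9. These were Lin28a (9.45, by 0.20 over the next clone) and Dppa3 (6.98, by 0.01). Zfp42, Tdgf1 and Klf2 were neither highest nor lowest in that clone.

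**Figure D2:**
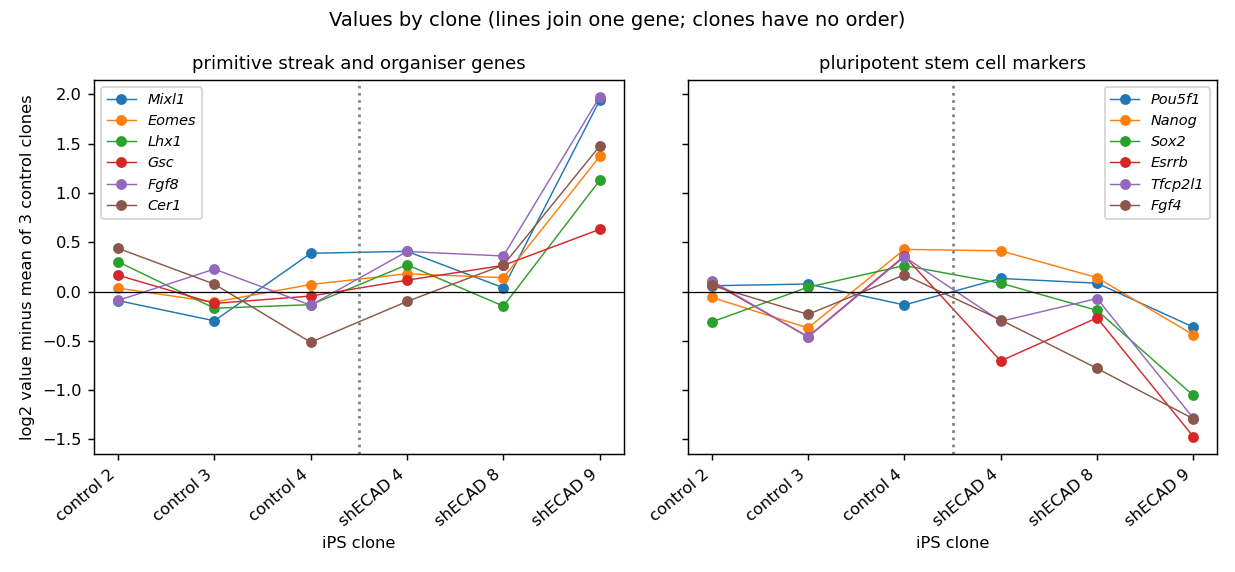
The left panel plots Mixl1, Eomes, Lhx1, Gsc and Fgf8, of the primitive streak and organiser, and Cer1, of the anterior visceral endoderm. The right panel plots 6 of the 14 pluripotent stem cell markers. Each point is the log2 value minus the mean of the 3 control clones, for each iPS clone. Points are single arrays and lines join the points of 1 gene. In shECAD clone 9 the 6 genes of the left panel are at their highest and the 6 markers drawn at their lowest of all clones. Of all 14 markers, 9 read lowest in that clone. The genes drawn were picked after their values were seen.

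Kdr and Runx1, genes of vessel and blood formation, had another pattern, with shECAD clones 8 and 9 both high and clone 4 closer to the controls. Kdr, the VEGF receptor that marks early mesoderm and endothelium, read 3.93, 3.61 and 3.85 in the controls and 4.14, 4.60 and 4.76 in the shECAD clones. The groups did not overlap, and the gap between them was 0.21. Kdr differed by a log2 fold change of 0.70 ± 0.19 (SE), with a 95% interval from 0.28 to 1.13 and a limma adjusted p of 0.0802. Runx1, a factor of blood stem cell emergence that fibroblasts can also make, read 5.32, 4.56 and 4.25 against 5.18, 5.61 and 5.49. Control clone 2 overlapped the shECAD clones, and the log2 fold change of 0.72 ± 0.25 (SE, limma adjusted p = 0.166) became 1.02 without that clone (limma adjusted p = 0.0326). Control clone 2 also had the highest mean of the fibroblast and feeder markers among the controls (6.45, against 6.07 and 5.43). Whether those cells had a part in the Runx1 values was not tested. Tal1, the blood and endothelial bHLH factor, had a log2 fold change of 0.34.

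The remaining mesoderm genes showed small differences. Hand1, a bHLH factor of extraembryonic mesoderm, trophoblast and heart, had a log2 fold change of 0.25, Foxf1, of lateral plate mesoderm, one of 0.16, and Isl1, of the second heart field, one of 0.02. Isl1 turned to -0.07 after median centring and -0.08 after quantile normalization. All 15 measured mesoderm genes had a shECAD mean above the control mean, with a median log2 fold change of 0.25, but 14 of the 15 read lowest in control clone 3 and 11 read highest in shECAD clone 9. Without control clone 3 the median was 0.10, and without shECAD clone 9 it was 0.12.

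Among the ectoderm genes, Olig2 had the largest difference of all members. Olig2, a bHLH factor of motor neuron and oligodendrocyte precursors, read 5.67, 5.33 and 6.33 in the controls and 4.42, 4.43 and 5.14 in the shECAD clones. Every shECAD clone was below every control clone, with clones 4 and 8 together at the bottom and clone 9 within 0.19 of control clone 3. Its log2 fold change of -1.11 ± 0.27 (SE) had a 95% interval from -1.71 to -0.51 and a limma adjusted p of 0.0575. It passed the test after median centring (limma adjusted p = 0.0316), after quantile normalization (0.0451), with an intensity trend and robust prior (0.0437), with array weights (0.0129), without control clone 3 (0.0451) and without shECAD clone 9 (0.0421). With control clone 4 left out, limma gave -0.83 and an adjusted p of 0.172. The test was also not passed without control clone 2 (limma adjusted p = 0.0889), shECAD clone 4 (0.166) or shECAD clone 8 (0.152). Olig2 was the 1 member with a control clone, clone 4, at 1 log2 unit or more above every shECAD clone (background 0.451%), and control clones 2 and 3 had 0 such members (0.231% and 0.381%).

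Fabp7, a fatty acid binding protein of radial glia, read 3.99, 3.93 and 3.85 in the control clones and 4.02, 4.51 and 4.43 in shECAD clones 4, 8 and 9. Clones 8 and 9 were higher and clone 4 was 0.03 above the highest control clone. The log2 fold change was 0.40 ± 0.17 (SE, limma adjusted p = 0.252), and the groups overlapped after median centring and after quantile normalization. Neurog1, a proneural bHLH factor, read 4.62, 4.37 and 4.49 against 4.65, 4.46 and 5.14. Here again clone 9 alone was above the controls by more than 0.5, and the log2 fold change of 0.26 was 0.06 without it.

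The early neural genes showed no common direction. Sox1, the HMG-box factor of the first neural plate, read 6.44 to 6.93 in the control clones and 6.46 to 6.80 in the shECAD clones, with a log2 fold change of -0.12 and a 95% interval from -0.52 to 0.27. Pax6, of eye and forebrain, had -0.24, Pax3, of dorsal neural tube and neural crest, 0.12, and Zic1 -0.05. Neurog2 had 0.16, the Notch target Hes5 0.25 and Sox21 -0.02. Sox21 read 6.66 in control clone 4 and 5.71 to 6.29 in the other 5 clones. The ectoderm median was 0.05, and it was -0.04 after median centring.

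The 6 measured trophoblast genes all lay below the median level of all genes and none passed the test, with limma adjusted p-values of at least 0.282. Gata3, a zinc finger factor of trophectoderm, read 5.48, 4.83 and 5.14 in the controls and 5.95, 5.51 and 5.38 in the shECAD clones. Here clone 4 was highest and clone 9 lowest of the shECAD clones, and clone 9 lay below control clone 2. The log2 fold change was 0.46 ± 0.21 (SE). Plac1, an X-linked placental gene, read 3.70, 4.34 and 3.83 against 4.61, 4.20 and 4.09, again with shECAD clone 4 highest, and had a log2 fold change of 0.35 ± 0.21 (SE). Gata2, which acts with Gata3 in trophoblast and also in blood, read 5.38, 5.21 and 5.09 against 5.56, 5.28 and 5.48 and had a log2 fold change of 0.22 ± 0.16 (SE).

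Cdx2 and Elf5, the factors of trophoblast stem cells, had log2 fold changes of 0.07 and -0.07, with 95% intervals from -0.42 to 0.56 and from -0.44 to 0.29. Tfap2a, an AP-2 factor of trophoblast, surface ectoderm and neural crest, had 0.11. None of the 6 read highest in shECAD clone 9. In shECAD clone 4, 4 read highest, against 14.8% of all genes and 16.6% of the genes below the median level. With median centring 3 did, against 13.8% of those dimmer genes. The sign of Cdx2 turned after median centring and quantile normalization, to -0.02 in each.

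**Figure D3:**
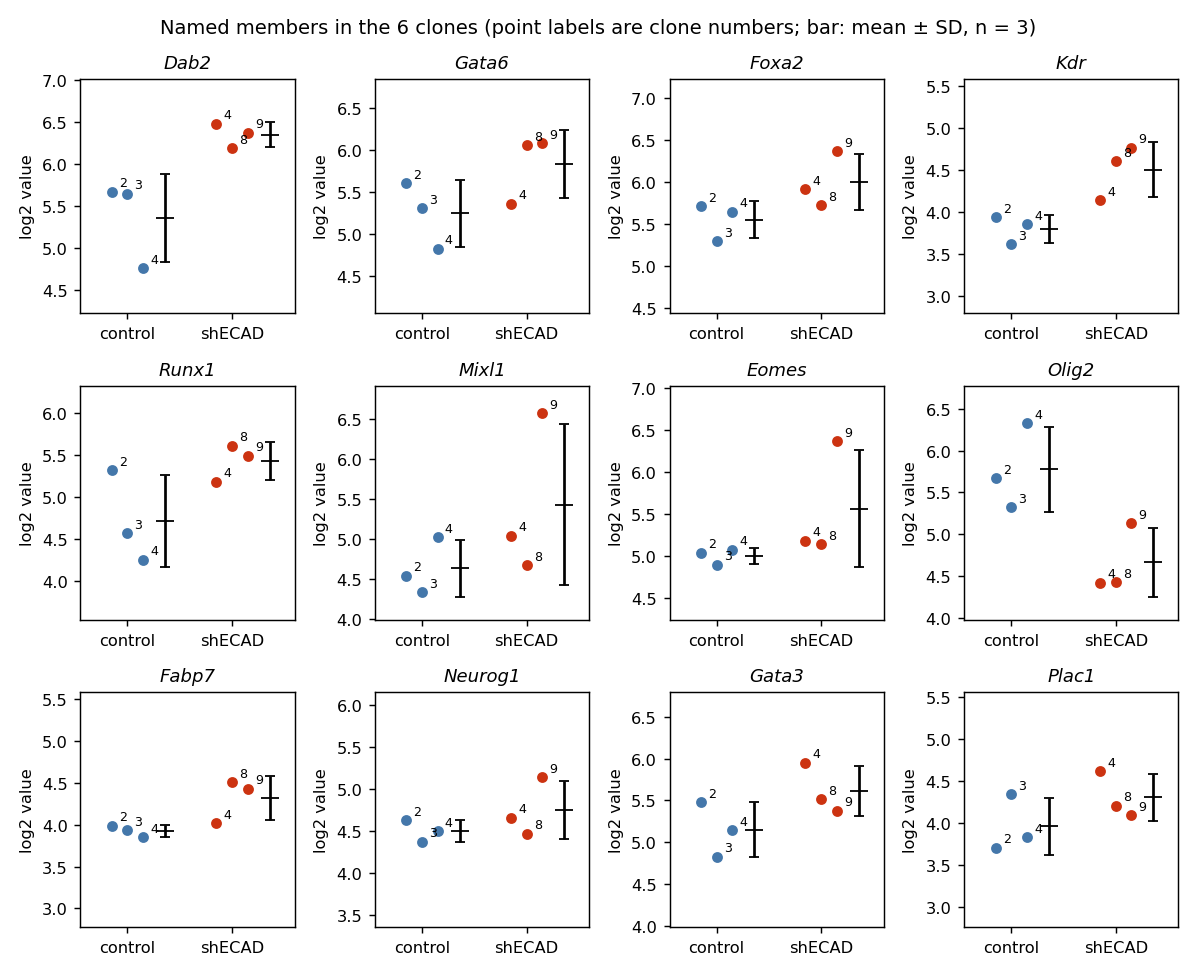
Each panel plots the log2 values of 1 lineage gene in the 3 control clones (blue) and the 3 shECAD clones (red), with clone numbers beside the points and the mean ± SD of each group (n = 3) as a black bar. Axes differ in range between panels. Dab2, Kdr and Olig2 part the groups most widely, and Foxa2, Eomes and Fabp7 part them by only 0.01, 0.07 and 0.03. Mixl1 and Eomes have 1 high point (shECAD clone 9), and Gata3 and Plac1 are highest in shECAD clone 4.

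By lineage, the shECAD clones differed from each other in which list read high. In shECAD clone 9 the median difference from the control mean was 0.51 for endoderm, 0.62 for mesoderm, 0.19 for ectoderm and 0.18 for trophoblast. In that clone it was 0.07 over all genes and 0.22 over the genes below the median level. In shECAD clone 4 the medians were 0.12, 0.16, -0.08 and 0.27 in the same order, and in shECAD clone 8 they were 0.04, 0.08, -0.03 and 0.03. The control clones varied as well, from 0.24 for endoderm in clone 2 to -0.25 in clone 3. Of the 42 members, 21 read highest in shECAD clone 9, as did 28.7% of all genes and 41.2% of the genes below the median level. The share lowest in control clone 3 was 71.4%, against 25.7% of all genes and 38.8% of the dimmer genes. After quantile normalization 19 members read highest in shECAD clone 9, against 25.8% of the dimmer genes, and 20 lowest in control clone 3, against 24.8%. The endoderm and mesoderm medians of clone 9 were then 0.35 and 0.45, and those of ectoderm and trophoblast 0.03 and 0.02. The part of array scaling in the members' values was measured only through these settings.

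**Figure D4:**
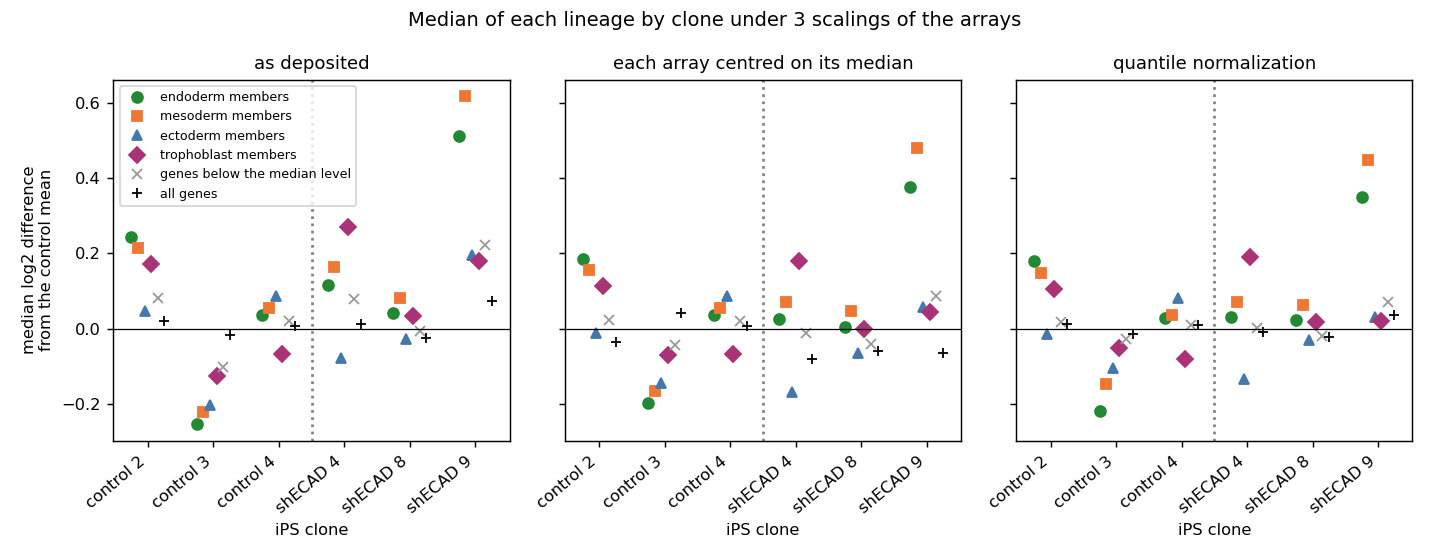
For each iPS clone, the points give the median over the genes of a lineage of the log2 difference from the mean of the 3 control clones, with the same over all genes (plus signs) and over genes below the median level (crosses). The panels show the values as deposited, after centring each array on its median and after quantile normalization. The endoderm and mesoderm medians of shECAD clone 9 are the highest points in each panel, and the points of control clone 3 lie lowest for these lists.

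Further genes of the lineages, listed by name beside the members, included 3 that passed the test. Of 60 listed, 56 were measured, 2 rose and 1 fell, where 1.90% of all genes were called higher and 1.23% lower. Nes (nestin), an intermediate filament gene of neural progenitors that mesenchymal cells also make, read 5.26, 5.83 and 5.53 in the control clones and 6.43, 6.53 and 7.33 in shECAD clones 4, 8 and 9. It rose by 1.22 ± 0.25 (log2 fold change, SE, limma adjusted p = 0.0302). Foxc2, a forkhead factor of paraxial mesoderm and vessels, rose by 0.69 ± 0.16 (limma adjusted p = 0.0491), from 5.97 to 6.31 in the control clones to 6.68 to 6.94 in the shECAD clones. Trf, the transferrin gene, made by visceral endoderm and liver among other cells, fell by 1.09 (SE 0.25, limma adjusted p = 0.0435), from 6.02 to 6.63 in the control clones to 4.68 to 5.58 in the shECAD clones. Trf lost its call when any 1 clone was left out (adjusted p up to 0.154, without control clone 4). Foxc2 lost its call without any clone but control clone 2 (up to 0.184, without control clone 4) and after median centring (0.0711). Nes lost its call without control clone 2 or 4 or shECAD clone 8 or 9 (up to 0.0992, without control clone 4), and all 3 lost theirs when every probeset was tested on its own. The calls in the lists were 0 higher and 1 lower of 13 for endoderm, 1 and 0 of 18 for mesoderm, 1 and 0 of 12 for ectoderm and 0 and 0 of 13 for trophoblast. At an unadjusted p below 0.05, where 18.0% of all genes lay, the endoderm list had 1 higher and 1 lower, mesoderm 5 and 1, ectoderm 2 and 1, and trophoblast 2 and 1.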

How the data were processed

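Total RNA of 6 mouse iPS lines was measured on Affymetrix whole-transcript arrays from 100 ng of RNA, per the labels' protocols. The authors deposited 1 log2 value per probeset and array. RMA and Partek are the tools that the submitters' processing notes list, and no version, setting or build is given in the sources used here. Of 28853 probesets, 21789 have 1 gene symbol in the platform annotation, 1621 have several and 5443 have none here. The brightest single-symbol probeset (highest mean over 6 arrays) stood for each of 19938 genes, with no filter.

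shECAD and control clones were fitted with limma 3.58.1 (lmFit, eBayes) in R 4.3.3, with Benjamini-Hochberg adjustment over all genes and a call at an adjusted p below 0.05. The fit was tested on simulated data. The members and lists were chosen with earlier results of these data known. Values in every clone are given for Cdh1, for called members, for members with a clone 1 log2 unit or more beyond the other group, and for the 3 members of each lineage with the largest difference. Alternatives were other scalings, a filter on dim genes, other uses of probesets, a trended robust prior, array weights, an adjusted p of 0.1 and leaving out each clone. Counts of non-overlapping members, unadjusted p-values and extreme clones were added after seeing the data. Gene names are those of the platform annotation, and promoters are from RefSeq (GRCm38.p6). The motif set was changed after a first search of these windows gave almost no matches: TATAA and CCAAT were added and a GATA core was dropped, so the matches shown depend on that choice. The number of arrays limits the precision. Figures used matplotlib 3.10.9.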

Additional observations from a re-analysis of the deposited data

How the results depend on the processing

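No paired analysis was possible because the groups share only the clone number 4, which names a colony. Of the 42 members, the number called was 1 (Olig2) after median centring and after quantile normalization, 1 (Dab2) among the 10 members at or above the median level, 2 (Dab2 and Olig2) with a trended robust prior and with array weights, 3 (with Kdr) at an adjusted p below 0.1, and 0 to 2 with 1 clone left out. By lineage, endoderm had 1 call among brighter genes, with the trended prior, with array weights and at 0.1, and 0 to 1 with 1 clone left out. Mesoderm had 1 at 0.1 and 0 to 1 with a clone left out. Ectoderm had 1 under both scalings, the trended prior, array weights and 0.1, and 0 to 1 with a clone left out. Trophoblast had 0 calls in every setting that could be run, and could not be fitted among brighter genes, where it has no member. Of 19938 genes, the calls numbered 680 after median centring, 577 after quantile normalization, 819 with the trended prior and 1067 with array weights. They numbered 213 with every probeset on its own, 1278 at 0.1, and 146 to 543 with 1 clone left out. Among the 9969 brighter genes 781 were called. Against 623 in the main fit, the all-gene calls rose wherever members gained calls, except after quantile normalization and with 1 clone left out. The members at an unadjusted p below 0.05 numbered 4 after either scaling and without control clone 4, and 3 among brighter genes. The share of all genes at that threshold is given only for the main fit (18.0%), so these counts have no background of their own. Members at least 0.5 log2 units above every control clone numbered 1 in shECAD clone 4, 3 in clone 8 and 8 in clone 9 (2.38%, 7.14% and 19.0% of members, against 3.63%, 3.38% and 5.32% of all genes), and at 2 log2 units clone 9 had 0. The cause of these differences was not tested. Cdh1 kept its call throughout, with log2 fold changes from -2.45 to -1.92 with 1 clone left out. The log2 fold changes of the members given in every clone kept their direction in all settings run, except that the dimmer probeset of Dab2, tested on its own, had -0.03.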
